A study of Homo sapiens with 2 samples.

Results

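The 10 genes described here encode the classical AP-1 proteins (FOS, FOSB, FOSL1, FOSL2, JUN, JUNB and JUND) and the small MAF proteins (MAFF, MAFG and MAFK). They were listed by family, with earlier results of these data known. No measured value enters the rule that lists them. Each was taken with its annotated gene body (GENCODE release 44, hg38), and all chromatin-binding summits of p52 lying within 100 kb of that body were collected. The members are 10 of 20033 protein-coding genes. They drew 19 of 2007 summits in replicate 1 and 9 of 1467 summits in replicate 2.

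The data are chromatin immunoprecipitation followed by sequencing (ChIP-seq) for p52, the processed DNA-binding product of NFKB2 and an end point of non-canonical NF-κB signalling. MDA-MB-231, an established triple-negative breast cancer line, was starved for 8 h and then held for 48 h in 10 ng/ml TWEAK, the cytokine ligand of the receptor Fn14, with fresh cytokine given at 24 h. The 1 group held 2 replicates of this line, and libraries of untreated cells, IgG or input were not analysed here. Binding is therefore described in TWEAK-treated cells only, nothing here says whether it depends on TWEAK, and RNA levels of these genes were not analysed here.

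AP-1 is a dimer of a FOS and a JUN protein, or of JUN proteins with each other, that reads the sequence TGAGTCA or TGACTCA. FOS and FOSB are classical immediate early genes, FOSL1 and FOSL2 encode the FRA proteins, and JUN, JUNB and JUND encode the JUN partners. Small MAF proteins have a leucine zipper and a DNA-binding domain but no activation domain of their own. They pair with themselves, or with CNC proteins such as NFE2L2, on the MAF recognition element (MARE), which contains an AP-1-like core. Several genes of both families respond to inflammatory cytokines.

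Of the 10 members, 7 had a p52 summit within 100 kb in replicate 1, where 25.0% of protein-coding genes did. In replicate 2 it was 4 members, against 16.8% of genes. The 4 members with a summit in both lists (14.2% of genes) were FOSL1, JUNB, MAFF and MAFG, and each of them had at least 1 shared summit, meaning that summits of both lists lay within 200 bp of each other (12.2% of genes). FOSB, JUND and MAFK had summits in replicate 1 only. FOS, FOSL2 and JUN had none in either list. The strongest summit near any member was at MAFF, with a −log10 q of 86.1 in replicate 1 and 79.7 in replicate 2, ranks 60 and 34 of their lists. The −log10 q, read as such from the column layout, is the peak caller's score for the significance of enrichment over input. It depends on depth. A rank of 1 is the strongest summit of a list, the one with the highest value.

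**Figure D1:**
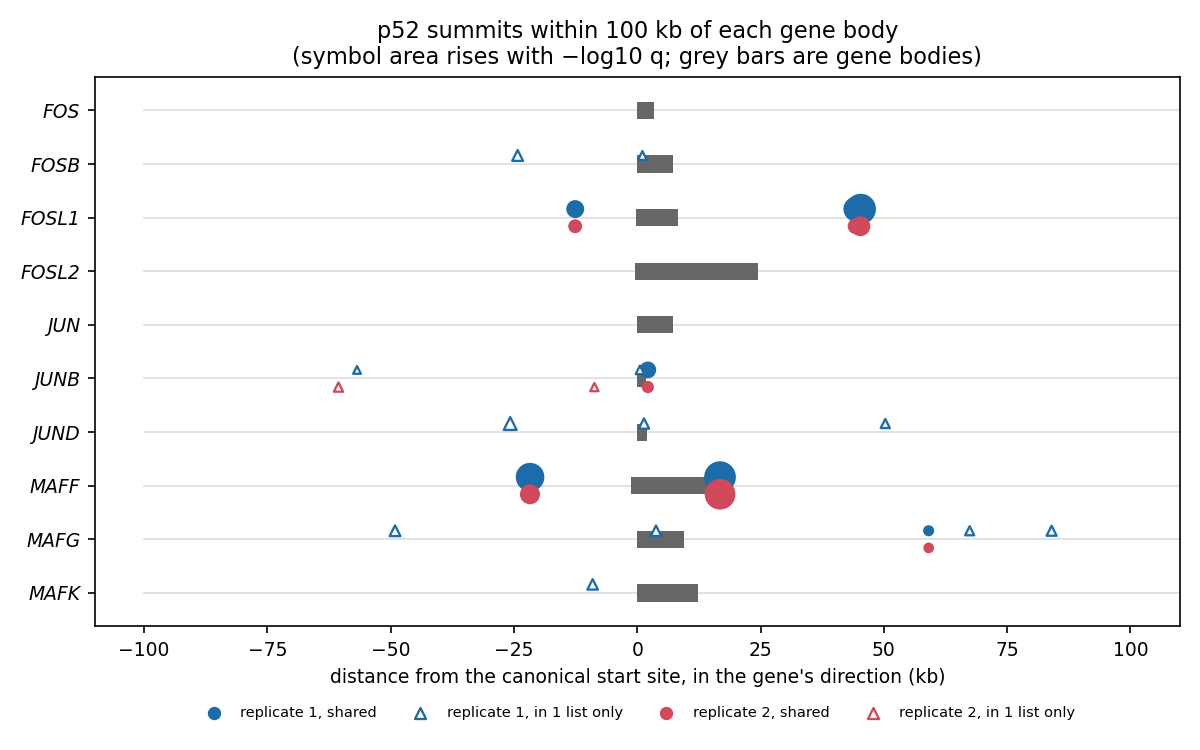
Positions of p52 summits around the 10 members, as the distance in kb from the canonical start site in the direction of transcription (grey bars, gene bodies). Symbol area rises with −log10 q. Filled circles are summits shared by both replicates, open triangles are summits of 1 list, blue is replicate 1 and red is replicate 2. The largest symbols lie at MAFF and beyond the 3′ end of FOSL1, and the rows of FOS, FOSL2 and JUN are empty.

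The sequences around the 4 shared summits that carried a κB site, the sequence bound by NF-κB dimers, are given first because the results for MAFF, FOSL1 and JUNB turn on them. A κB site was taken as 3 G bases, a purine, any 2 bases, 2 pyrimidines and 2 C bases, on either strand, and overlapping matches were joined. Each window runs 50 bases either side of the summit of replicate 1 (hg38, plus strand), and capitals mark the κB site.
MAFF downstream, chr22:38218720-38218820: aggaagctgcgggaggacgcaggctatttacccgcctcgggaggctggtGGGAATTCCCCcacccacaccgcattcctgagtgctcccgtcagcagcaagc
MAFF upstream, chr22:38180200-38180300: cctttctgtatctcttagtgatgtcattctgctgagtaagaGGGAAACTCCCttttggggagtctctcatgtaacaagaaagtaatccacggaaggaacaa
FOSL1 upstream, chr11:65912925-65913025: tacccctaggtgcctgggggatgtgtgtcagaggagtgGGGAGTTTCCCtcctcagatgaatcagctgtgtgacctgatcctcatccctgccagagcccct
JUNB downstream, chr19:12793564-12793664: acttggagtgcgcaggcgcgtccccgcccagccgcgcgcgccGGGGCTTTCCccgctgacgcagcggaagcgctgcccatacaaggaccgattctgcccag

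MAFF, a small MAF gene known to respond to cytokines, spans chr22:38200767-38216507 on the plus strand and had a shared summit on each side. The downstream summit lay in intergenic sequence 2263 bp past the gene end in replicate 1 and 2269 bp past it in replicate 2, so the lists placed it 6 bp apart. Its κB site (38218769-38218779) covered both summit positions, with its centre 4.0 bp from the summit of replicate 1 and −2.0 bp from that of replicate 2. The same 11 bases stood within 100 bp of 179 summits of replicate 1 and 151 of replicate 2, so this is among the κB letters that recur through both lists. A second κB site, gggggatccc, lay 192.5 bp away from the summit of replicate 1 and outside the printed window. The closest annotated start site, at 3992 bp, belonged to the longest form of PLA2G6, a phospholipase gene on the opposite strand that reaches into the MAFF body. The nearest MAFF start was at 5235 bp and the canonical one at 16776 bp.

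The MAFF upstream summit fell inside the PLA2G6 gene, 154 bp from a PLA2G6 start site and 20517 bp from the MAFF body in replicate 1 (171 and 20534 bp in replicate 2). Its −log10 q was 67.8 at rank 91 in replicate 1 and 28.5 at rank 193 in replicate 2. Both values placed it in the stronger 50% of its list. The κB site (38180241-38180251) held its centre 4.0 bp before the summit of replicate 1 and 13 bp after that of replicate 2. Of the surrounding 201 bases, 42.3% were G or C, the lowest share at any summit near a member.

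FOSL1, which encodes FRA-1, the FOS-family protein most often linked to invasive breast cancer cells, spans chr11:65892049-65900573 on the minus strand. All 3 of its summits were shared. The summit upstream of the gene lay in intergenic sequence, 12402 bp from the body in replicate 1 and 12413 bp in replicate 2, with the start of C11orf68 nearer at 5385 and 5374 bp. It had a −log10 q of 21.0 (rank 507) in replicate 1 and 9.40 (rank 739) in replicate 2. Its κB site, gggagtttccc at 65912963-65912973, is the reverse complement of the site upstream of MAFF, and these letters occurred within 100 bp of 18 summits in replicate 1 and 13 in replicate 2. A second κB site, ggaaaatccc, lay at 65913062-65913071. The AP-1 sequence TGACTCA lay at 65913108-65913114, with its centre 136 bp from the summit of replicate 1 and 125 bp from that of replicate 2, beyond the 100 bp used for counting motifs.

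The other 2 FOSL1 summits were the stronger ones, but both sat over exons of CFL1, the gene for the actin-severing protein cofilin. The first, 36961 bp downstream of FOSL1, had a −log10 q of 79.1 (rank 71) in replicate 1 and 27.7 (rank 205) in replicate 2. The second, 35955 bp downstream and 379 bp from the CFL1 start, had 47.8 (rank 160) and 14.8 (rank 479). No κB, AP-1 or MARE match lay wholly within 100 bp of either in either list. A κB site, gggatccccc, stood at 65855232-65855241, with its centre 148.5 bp from the first summit in replicate 1 and 99.5 bp in replicate 2. For both, 7 protein-coding genes had a start site nearer than that of FOSL1, so distance alone gives no ground to assign them to this gene.

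JUNB, a JUN-family gene without introns, spans chr19:12791486-12793315 on the plus strand. Its shared summit was the closest to any member among the shared ones, 299 bp past the gene end in replicate 1 and 310 bp in replicate 2, in an intron of HOOK2, a gene of the opposite strand whose annotated span overlaps JUNB. A HOOK2 start site was nearer to this summit, at 1032 and 1043 bp, than that of JUNB, at 2128 and 2139 bp. The −log10 q was 17.5 (rank 626) and 5.75 (rank 1041), so it was in the stronger 50% of replicate 1 but not of replicate 2. It carried 4 separate κB sites within 250 bp: ggggctttcc at the summit itself (12793606-12793615), then gggaatcccc (12793695-12793704), gggattttcc (12793749-12793758) and ggaaagcccc (12793782-12793791). The first and the fourth are reverse complements of each other, and gggattttcc is the reverse complement of the second site upstream of FOSL1. As many κB sites were found at 13 summits of replicate 1 (0.721%) and 14 of replicate 2 (1.14%), the JUNB summit included. This is a description of a small class in which the JUNB summit falls.

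Just after this κB site the JUNB window holds TGACGCAGC, a match to TGACNNNGC, the core of the antioxidant response element (ARE) that NFE2L2 and small MAF proteins read, with its centre 10 bp from the summit of replicate 1. This motif was added after the values were seen. It was found within 100 bp of 1 member summit in each list, this same one, and of 8.15% and 8.24% of all summits on chromosomes 1 to 22, X and Y.

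The remaining summits near JUNB were weak and in 1 list each. In replicate 1, a summit within the JUNB exon, 539 bp from the start, had a −log10 q of 3.01 (rank 1826), and another at a start site of TRIR had 1.71 (rank 1967). In replicate 2, a summit 8699 bp upstream of JUNB in a HOOK2 intron had 2.62 (rank 1360), and a further one in a TRIR exon had 4.46 (rank 1180). The exon summit of JUNB and that in the TRIR exon of replicate 2 had no κB match within 100 bp.

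**Figure D2:**
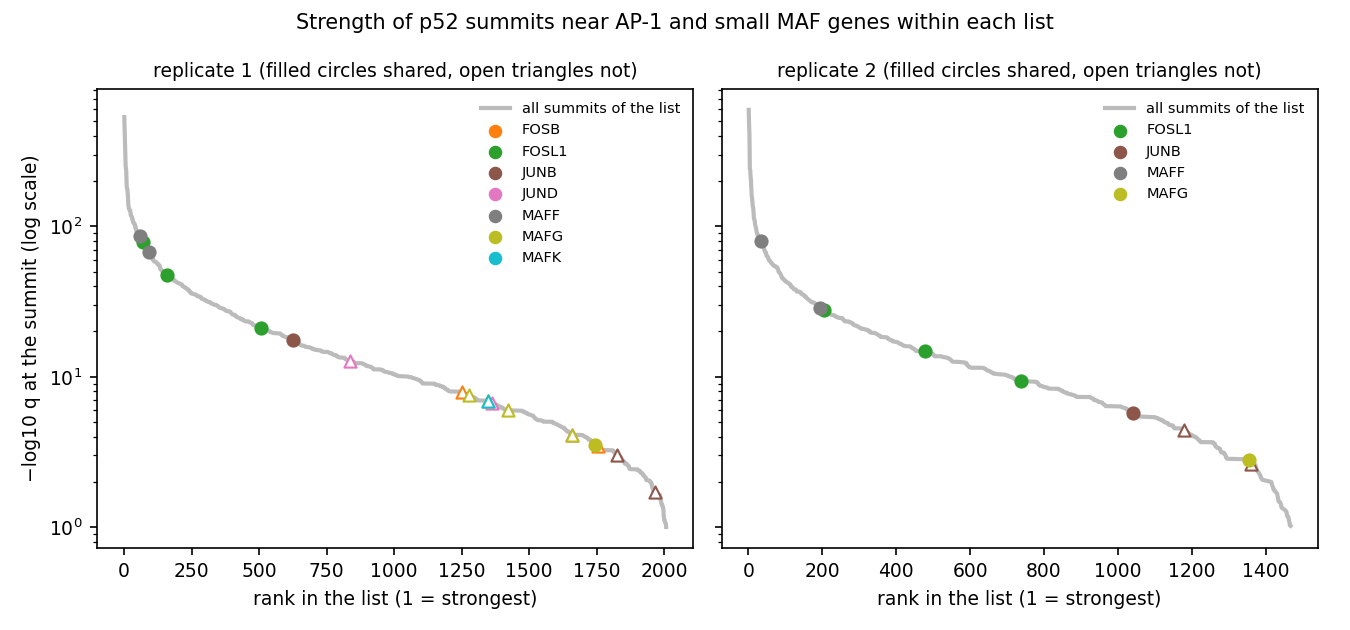
The −log10 q at every summit (y axis, log scale) against its rank in the list (x axis, 1 is the strongest), for replicate 1 on the left and replicate 2 on the right. Coloured symbols are summits within 100 kb of a member, filled where shared and open where not. The MAFF summits lie at ranks 60 and 91 on the left and 34 and 193 on the right, the FOSL1 summits spread to ranks 507 and 739, and the open symbols of replicate 1 begin at rank 835.

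MAFG (chr17:81918270-81927735, minus strand), a small MAF partner of NFE2L2, had the most summits of any member in replicate 1, with 5, but only 1 in replicate 2. The shared summit was weak in both, with a −log10 q of 3.52 (rank 1743) and 2.79 (rank 1354). It lay 30 and 15 bp from a start site of ARHGDIA and 49610 bp downstream of MAFG. It had no κB match. In replicate 1 a summit inside MAFG itself, 409 bp from one of its start sites, had a −log10 q of 6.89 (rank 1346) and a κB site, gggagttcccc, whose letters recurred at 57 summits of replicate 1 and 35 of replicate 2. The other 3, over P4HB and ASPSCR1 exons, had values of 4.12 to 7.51 and no κB match.

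JUND, FOSB and MAFK had summits in replicate 1 alone, 6 in all, each with a κB site. Windows outside exons are shown for FOSB and JUND because no second list carries the finding there, and the sequence is what can be compared. The window inside MAFG is added to them. Capitals again mark the κB site (hg38, plus strand).
FOSB intron, chr19:45468986-45469086: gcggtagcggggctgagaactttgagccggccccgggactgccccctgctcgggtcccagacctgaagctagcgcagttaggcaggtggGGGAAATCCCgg
FOSB upstream, chr19:45443681-45443781: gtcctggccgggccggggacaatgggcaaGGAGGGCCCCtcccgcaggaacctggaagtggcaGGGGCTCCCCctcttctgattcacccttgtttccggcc
JUND downstream, chr19:18231285-18231385: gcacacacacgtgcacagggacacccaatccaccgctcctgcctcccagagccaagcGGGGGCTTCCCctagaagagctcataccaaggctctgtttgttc
MAFG intron, chr17:81923891-81923991: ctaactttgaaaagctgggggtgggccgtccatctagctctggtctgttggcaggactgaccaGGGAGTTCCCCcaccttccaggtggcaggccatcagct

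JUND, a JUN gene commonly expressed without stimulation, spans chr19:18279694-18281622 on the minus strand. A summit inside its single exon, 660 bp from the nearest JUND start, had a −log10 q of 6.69 (rank 1363) and κB sites of ggggaatcccc at 18280281-18280291 and of ggggggtcccc at 18280334-18280344. The strongest of its 3 summits, with 12.8 (rank 835), lay in an LSM4 exon 25768 bp upstream, and carried gggggttcccc. The third, in a PDE4C intron 48359 bp downstream, had 4.12 (rank 1658). It was the only summit near any member with an AP-1 match within 100 bp. That match, TGAGTCA, lay at 18231407-18231413 with its centre 75 bp from the summit.

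FOSB (chr19:45467995-45475179, plus strand) had a summit within its own intron, also covered by a long form of ERCC1, 601 bp from the nearest FOSB start, with a −log10 q of 3.48 (rank 1756). Its κB site, gggaaatccc, was near 201 summits of replicate 1 and 180 of replicate 2, the most of any site at a member. The other FOSB summit, 24264 bp upstream in an intron of the DNA repair gene ERCC1, had 7.86 (rank 1251) and 2 κB sites. MAFK (chr7:1530702-1543043, plus strand) had 1 summit, 9053 bp upstream in intergenic sequence, with 6.89 (rank 1346). MAFK owned the nearest start site. Of the 31-base words around the MAFK summit, 59.1% occurred once in the genome, against 82.5% or more at every other member summit, so reads there were the hardest to place. In replicate 2 the nearest summits to the bodies of FOSB, JUND and MAFK were 466644, 293463 and 418929 bp away.

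For FOS, FOSL2 and JUN the lists held no summit within 100 kb. The nearest to FOS (chr14:75278826-75282230) was 278860 bp away in replicate 1 and 278843 bp away in replicate 2. To FOSL2 (chr2:28392448-28417317) the distance was 1011005 and 1621299 bp. JUN (chr1:58776845-58784048) had its nearest summit at 145540 and 158340 bp. A summit shared by both lists lay 158310 bp from JUN in replicate 1, with −log10 q values of 7.98 and 6.38 and no κB match. An absent summit means that no peak passed the caller's threshold, and the sequencing depth behind the lists is unknown.

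These 3 genes also lie in gene-poor surroundings, which bears on how a window of fixed size is read. Within 100 kb there were 0 other protein-coding genes for FOS, 1 for JUN and 2 for FOSL2, while FOSL1, JUNB and MAFG had 13, 14 and 15. Genes with 0 to 2 such neighbours had a summit in replicate 1 in 15.9% of cases, and genes with 13 or more in 49.9%. The median was 6.5 neighbours for the members and 4.0 for all protein-coding genes. MAFF had 5 neighbours, and among genes with 3 to 6 neighbours 11.6% had a shared summit. Among genes with 13 or more neighbours, the class of FOSL1, JUNB and MAFG, 22.2% had one. The part of gene density in the members' counts was not tested.

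The distance at which a summit is counted changed which members were reached. Within 10 kb, 6 members had a summit in replicate 1 (8.33% of genes) and 2, JUNB and MAFF, had a shared one (3.66% of genes). Within 200 kb, 8 members had a summit in replicate 1 (36.8% of genes) and 5 had a shared one (19.7% of genes). The eighth and the fifth were JUN in both cases.

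The 7 shared pairs of summits near members were 6 to 49 bp apart, with a median of 15.0 bp, equal to the median over all 990 shared pairs. In all 7 the −log10 q was higher in replicate 1, as it was in 75.2% of all shared pairs. The value depends on depth, which may differ between the libraries, so the pairs are compared by rank within each list. The order of the 7 was not the same in both: the MAFF downstream summit led in each list, but the first CFL1 summit ranked 71 in replicate 1, ahead of the MAFF upstream summit, and 205 in replicate 2, behind it.

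**Figure D3:**
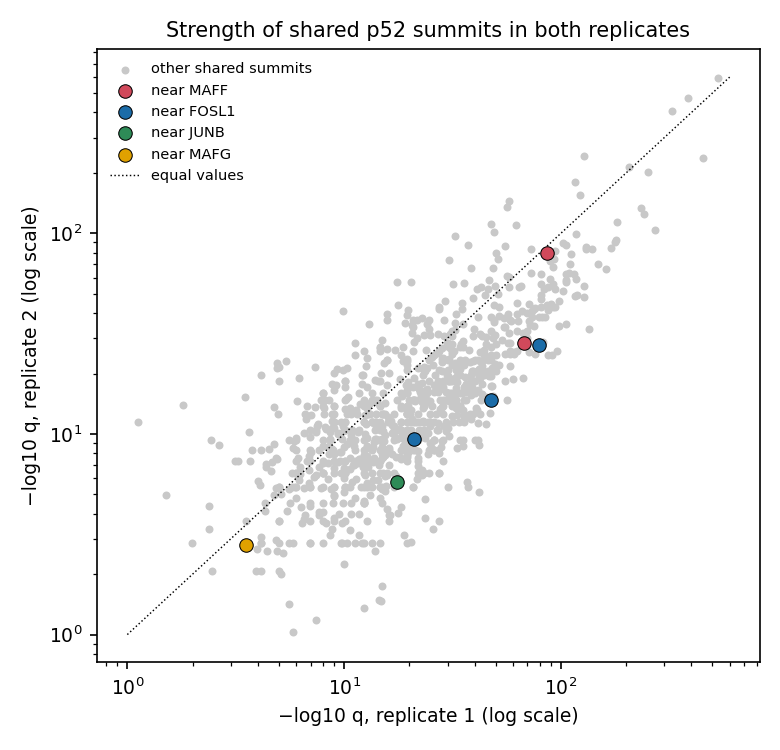
The −log10 q in replicate 1 (x axis) and replicate 2 (y axis), both on log scales, of all 990 shared summits (grey) and the 7 near members (coloured). The dotted line marks equal values. All 7 coloured points lie below it, with MAFF downstream closest to the upper end.

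In replicate 1 the 7 shared member summits had a median −log10 q of 47.8 and the 12 unshared ones a median of 6.33, with 12.8 the highest of the unshared. Over all shared and all unshared summits of that list on chromosomes 1 to 22, X and Y, the medians were 20.5 and 5.98. Of the 19 member summits in replicate 1, 7 were in the stronger 50% of the list, and of the 9 in replicate 2, 4 were. The members' median was 6.89 in replicate 1 against 10.3 for the whole list of 2007, and 9.40 against 9.47 for the 1467 of replicate 2.

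κB sites lay within 100 bp of 12 of the 19 member summits in replicate 1 and of 5 of the 9 in replicate 2. Among the other summits on chromosomes 1 to 22, X and Y, 51.9% had one in replicate 1 and 57.3% in replicate 2, so the members' shares are near the background. Counted with the members, these were 938 of 1804 summits and 702 of 1225. The AP-1 sequence was present at 1 of 19 in replicate 1 (7.96% of the other summits) and at 0 of 9 in replicate 2 (7.73% of the other summits). No member summit had a complete MARE, a motif found at 9 of 1804 summits of replicate 1 and 4 of 1225 of replicate 2. The shorter TGCTGAC, the MARE flank with the start of the core, was present at 1 summit in each list, MAFF downstream, at 38218808-38218814 on the minus strand. It overlaps neither the κB site nor an AP-1 match, and 3.99% and 3.10% of all summits had it. The other form of this flank, TGCTGAG, was not counted, and the printed window of MAFF upstream holds it. A match is a run of letters only, and binding of AP-1 or MAF proteins was not analysed here.

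**Figure D4:**
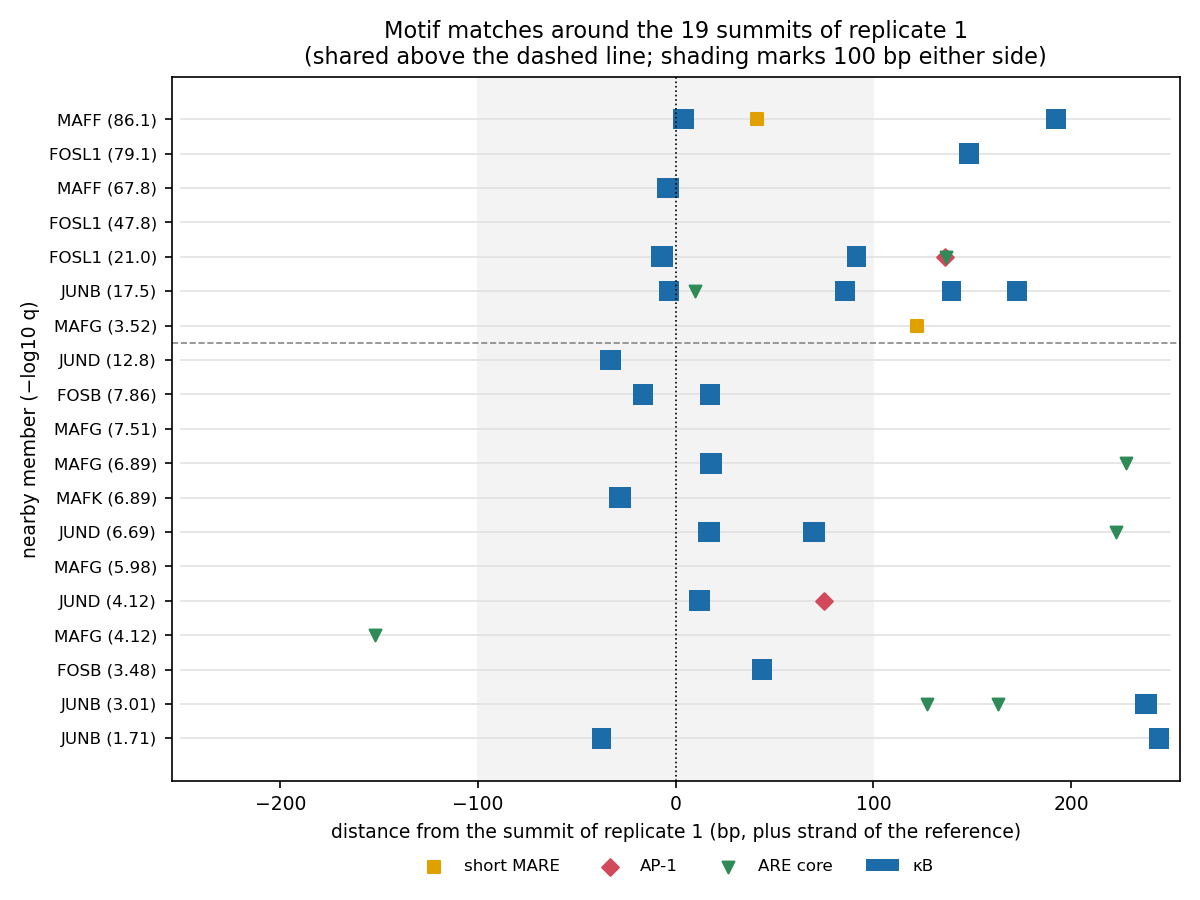
Motif matches within 250 bp of the 19 member summits of replicate 1, by distance from the summit in bp on the plus strand. Rows are summits named by member with their −log10 q, shared ones above the dashed line. Shading marks the 100 bp either side used for counting, and κB symbols (blue) lie in the shading in 12 of the 19 rows.

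The summits split by whether they fell in an exon of a protein-coding gene, a division made after the values were seen. In replicate 1, 10 of the 19 lay in such an exon (26.1% of the list) and 3 of these had a κB site. All 9 outside exons had one, where 63.6% of the list's summits outside exons did. In replicate 2, 4 of 9 were exonic (19.6% of the list) with 0 κB sites, and all 5 outside exons had one (65.4% of the list). The 5 places are shared in part, since 4 of them are also among the 9, so the lists are not independent counts. Without exonic summits, FOSB, FOSL1, JUNB, JUND, MAFF, MAFG and MAFK still had a summit in replicate 1 (16.3% of genes), and FOSL1, JUNB and MAFF had a shared one (8.59% of genes), while MAFG lost its shared summit.

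Binding inside the gene bodies was seen in replicate 1 only, with 1 summit each in FOSB, JUNB, JUND and MAFG, and 3 of the 4 had a κB site. The share of all protein-coding genes with a summit inside the body is not given, so this count is a description only. None was shared. All 4 lay 409 to 660 bp from the nearest annotated start site of their gene, within the 1 kb counted here as a promoter. From the canonical start the distances were 1040 bp in FOSB, 539 bp in JUNB, 1353 bp in JUND and 3794 bp in MAFG. Only the JUNB summit was thus within 1 kb of the canonical start. A narrower promoter was also searched. RefSeq promoter sequences (GRCh38.p14, 250 bases before to 50 after the start) matched 8 of the 10 members, all but FOSL1 and MAFK, and no summit of either list lay in any of them. A κB match stood in 1, the second MAFF promoter, as gggaaactcc with its first base at −102 from the start, on the strand opposite to the gene. This motif occurs in 11.3% of all 35116 promoters. These 10 letters are also within the 11-base site upstream of MAFF. TGACTCA was present in the FOSL2 promoter alone, and 4.95% of promoters had an AP-1 match.

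Genes that work with AP-1 and small MAF proteins were examined in the same way, from 4 lists, each count to be read against the 12.2% of all protein-coding genes with a shared summit. Of 7 further AP-1 partner genes, 2 had a shared summit within 100 kb, BATF and JDP2, and it was the same one. It lay 14097 bp downstream of BATF, a leucine zipper gene of lymphoid and myeloid cells, with −log10 q values of 19.4 and 16.6. In replicate 1 the nearest coding start was that of FLVCR2 at 17530 bp, against 38530 bp for BATF and 128956 bp for JDP2. Of 10 partners of small MAF and large MAF genes, NFE2 and NFE2L3 had a shared summit, without a κB match in either case, and NFE2L2 and the others did not. In replicate 1 the shared NFE2 summit lay 402 bp from a start site of CBX5. That of NFE2L3 lay in an exon, with a start of HNRNPA2B1 nearest among coding genes at 7939 bp.

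Of 10 kinases and phosphatases of the JNK pathway, whose end product phosphorylates JUN, 3 had a shared summit, again beside 12.2% of all genes. They were MAP3K5, MAP2K4 and DUSP16. In replicate 1 the MAP3K5 summit lay 29777 bp upstream of that gene and 24 bp from a start site of PEX7. The DUSP16 summit lay 36026 bp downstream of that gene, where 42.7% of the 31-base words occurred once in the genome. MAP2K4, a kinase that activates JNK, held its summit in its own intron, with a −log10 q of 69.5 (rank 87) in replicate 1 and 40.1 (rank 115) in replicate 2, and a κB site. Of 11 other immediate early genes, EGR1 and NR4A1 had a shared summit (12.2% of all genes), and IER2 had a summit in both lists that was not shared. In replicate 1 the shared NR4A1 summit lay 57199 bp downstream, with SMIM41 as the nearest coding start and 51.5% of the 31-base words occurring once. The EGR1 summit, 3986 bp upstream at the same base in both lists, had 235 (rank 8) and 133 (rank 13), with κB and AP-1 matches. It exceeded every member summit, while FOS, which is commonly induced alongside EGR1, had none within 100 kb.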

How the data were processed

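The 2 replicates were ChIP-seq libraries for p52 from TWEAK-treated MDA-MB-231 cells, sheared to 200 to 500 bp. As the study describes it, the authors trimmed reads (Trimmomatic), mapped them to hg38 (Bowtie2), called peaks per replicate over input (MACS2) and removed blacklisted regions. Versions, q threshold and duplicate handling are not given in the sources used here. The deposited lists, without header, hold 1-bp summits with a value read, from the column layout, as the −log10 of the q-value. It depends on depth, which is unknown, so it served to rank summits within a list.

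Summits were assigned to GENCODE release 44 genes within 100 kb, called shared within 200 bp, and searched for motifs within 100 bp on both strands (Python 3.11.15, pysam 0.24.0, numpy 2.4.6). Background shares came from 20033 protein-coding genes and from the 1804 and 1225 summits on chromosomes 1 to 22, X and Y, without the members' own for κB and AP-1, a choice made after the values were seen. All 10 members were named, with partner genes that had a summit in both lists. Members and lists were chosen with earlier results of these data known. With 1 group no test between conditions exists, and none was made. The study describes its ChIP-seq replicates as biological, and the labels do not say more. The sequence at the MAFK summit is not reported here. Scripts were tested on simulated data.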

Additional observations from a re-analysis of the deposited data

How the results depend on the processing

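Of the alternative values, 42 stayed within 1.5 times the value reported and 20 did not. Counting within 10 kb left 2 members with a summit in replicate 2, 2 in both lists and 2 with a shared summit, and 7 and 3 summits near members in the lists. Keeping the stronger 50% of each list left 4 members in replicate 1, 2 in replicate 2, 2 in both and 2 with a shared summit. The share of all protein-coding genes under this filter is not given, so these falls cannot be set beside it. The filter left 7 and 4 summits near members, of which 5 and 2 had a κB site and 0 in replicate 1 an AP-1 match. Without exonic summits 9 and 5 summits remained. AP-1 matches numbered 0 within 50 bp and 2 within 250 bp in replicate 1, and 1 within 250 bp in replicate 2. Leaving out a replicate gave 4 to 7 members: 7 without replicate 2, 4 without replicate 1. Shared summits then have no value. No paired analysis was possible because the samples analysed here form 1 group. A summit under the caller's threshold cannot be told from no binding.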

Other observations

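Between 100 and 200 kb, JUNB had 2 further shared summits. The one near MAN2B1, a lysosomal mannosidase gene, lay 147661 bp away with −log10 q values of 82.1 and 38.2. The other, near CALR, the gene for calreticulin, had 14.0 and 9.46. In replicate 1 alone, summits in that range stood near EML2 for FOSB, near BANF1 for FOSL1 and at 12894265 on chromosome 19 for JUNB. Another of replicate 1 alone, at 58631305 on chromosome 1, lay 145540 bp from JUN with a −log10 q of 5.98 and a κB match.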
